A study of Mus musculus with 6 samples.

Results

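Ccl3, Ccl4, Ccl6 and Ccl9 are 4 genes for CC chemokines, and Ccr1 and Ccrl2 are 2 genes for proteins of the chemokine receptor family. The 6 genes were taken by symbol from the 32285 genes counted, and their unique molecular identifiers (UMIs, which tag single RNA molecules) were summed by library and by cell class in single cells of the mouse heart. Chemokines are small secreted proteins that guide leukocytes by binding receptors on their surface. CCL3 and CCL4, also known as macrophage inflammatory proteins, are released by activated myeloid and lymphoid cells, and CCL3, CCL6 and CCL9 can signal through CCR1, a receptor that neutrophils and monocytes carry. CCRL2 resembles these receptors in sequence but is a non-signalling receptor that binds chemerin and presents it to neighbouring cells. After infarction, neutrophils enter the heart first, followed by monocytes that become macrophages, and both are known sources of chemokines.

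Non-cardiomyocytes were isolated from the hearts of male mice aged 8 to 12 weeks and sequenced with the 10x 3' method. Wild-type (WT) mice were of the strain C57BL/6JRj and knockout (KO) mice of the strain B6.Cg-Trpm4tm1.2-PG, which carries a targeted allele of Trpm4, a cation channel opened by calcium; no Cre or cell type restriction is named in the labels. Each genotype had a sham operation sampled at 24 h, or tying off (ligation) of the left anterior descending artery of the heart, sampled at 24 h or 72 h. Cells of 4 mice, live by Calcein-AM and DAPI staining in a sort, were pooled into each of the 6 libraries, so each group had 1 library, no value has a replicate check, and no test across groups was possible.

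All intervals given below are exact 95% intervals for counting error only, and leave out differences between mice, operations and library preparations. Of 34940 deposited cells, 32085 were kept, between 3365 and 6824 per library, with between 20299901 and 43012450 UMIs. The KO library at 72 h after ligation stood apart in depth, with a median of 1351 UMIs per cell against 3076 to 8011 in the others. Results that rest on it are given again for cells with at least 1500 UMIs. Trpm4 was counted in every library, at 4.23 to 8.48 UMIs per 1000000 UMIs of the same cells (CPM) in WT and 2.56 to 5.82 CPM in KO, and lower in KO than in WT in each of the 3 conditions. The labels do not give the part of the gene that the allele lacks, and a 3' count outside that part does not check the genotype. Pairs of libraries had 3 to 14 cell barcodes in common, 118 in all, and none of these pairs had identical counts.

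Cell classes were rebuilt by clustering the cells without the 6 genes and naming clusters from marker genes, since no annotation of the cells was used. Neutrophils, with S100a8 at 64522 CPM against 702 CPM in monocyte/macrophage cells, made up 5 clusters. Monocyte/macrophage cells made up 9 clusters, and held C1qb at 2119 CPM against 15.6 CPM in neutrophils. There were 882 neutrophils in WT and 669 in KO after sham, 1152 and 3397 at 24 h after ligation, and 948 and 463 at 72 h. Monocyte/macrophage cells numbered 1049 and 810, 677 and 1478, and 2129 and 2811 in the same order. Median UMIs per cell were 1941 to 3158 in neutrophils. They were 9687 to 11956 in monocyte/macrophage cells of 5 libraries and 1322 in those of the KO library at 72 h. Endothelial cells, which serve below to gauge free RNA, had 1978 to 4158, and fibroblasts 8782 to 10652 in the same 5 libraries and 1088 in KO at 72 h. Of 34 clusters, 3 with 2045 cells were left unnamed because their leading genes belonged to other classes.

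The 4 chemokine genes lie close together on chromosome 11 in the GENCODE M21 annotation of GRCm38. They are Ccl9 (ENSMUSG00000019122, chromosome 11, 83572919 to 83578636, minus strand), Ccl6 (ENSMUSG00000018927, chromosome 11, 83587882 to 83593087, minus strand), Ccl3 (ENSMUSG00000000982, chromosome 11, 83647844 to 83649355, minus strand) and Ccl4 (ENSMUSG00000018930, chromosome 11, 83662584 to 83664683, plus strand). Ccl6 and Ccl9 are 9245 bp apart and Ccl3 and Ccl4 13228 bp. Ccr1 (ENSMUSG00000025804, chromosome 9, 123962124 to 123968692, minus strand) and Ccrl2 (ENSMUSG00000043953, chromosome 9, 111054486 to 111057519, minus strand) lie on chromosome 9. Windows upstream of the start were found in the RefSeq table (GRCm38.p6) for 5 of the 6 genes, the exception being Ccl4. The 250 bases before the start are shown for Ccl6 and Ccl9, whose levels moved together across monocyte/macrophage clusters as given below, and for Ccrl2, whose pattern differed most from theirs.
Ccl6 (chr11:83593088-83593337, minus strand): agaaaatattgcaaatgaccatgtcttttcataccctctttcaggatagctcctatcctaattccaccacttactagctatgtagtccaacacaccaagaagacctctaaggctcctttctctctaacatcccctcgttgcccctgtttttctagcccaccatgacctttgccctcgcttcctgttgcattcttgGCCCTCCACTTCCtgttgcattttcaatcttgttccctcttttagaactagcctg
Ccl9 (chr11:83578637-83578886, minus strand): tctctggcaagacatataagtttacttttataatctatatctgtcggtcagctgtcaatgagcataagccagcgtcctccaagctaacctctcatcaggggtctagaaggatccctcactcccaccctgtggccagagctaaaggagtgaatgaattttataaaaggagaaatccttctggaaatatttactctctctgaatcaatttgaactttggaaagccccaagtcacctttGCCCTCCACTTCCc
Ccrl2 (chr9:111057519-111057768, minus strand): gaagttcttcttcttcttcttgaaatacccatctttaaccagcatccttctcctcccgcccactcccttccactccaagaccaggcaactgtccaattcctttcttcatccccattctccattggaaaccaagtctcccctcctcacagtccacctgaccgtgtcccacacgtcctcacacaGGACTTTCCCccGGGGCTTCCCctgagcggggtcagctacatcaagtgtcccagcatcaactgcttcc

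In the Ccl6 and Ccl9 windows, capitals mark the longest run of bases that both hold, 13 bases long, at 55 to 43 bases before the Ccl6 start and 14 to 2 bases before the Ccl9 start. The longest run in the other pairs among the 5 windows was 7 to 9 bases. In the Ccrl2 window, capitals mark matches, on the opposite strand, to a form of the kappa-B motif, the site bound by NF-kB. There were 2 of them, at 68 to 59 and 56 to 47 bases before the start. This motif was searched on both strands and is in 17.6% of the 32851 windows of this length. Of the other members only Ccr1 holds it. The AP-1 motif TGANTCA, in 6.75% of windows, matched Ccl9, and the PU.1 core GAGGAA, in 23.3%, matched Ccl3 and Ccr1. The C/EBP motif TTGCNNAA, in 9.56%, and the interferon-stimulated response element motif, in 2.98%, matched none of the 5. A match is a description of letters and says nothing of binding.

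Ccl3 levels were higher in neutrophils than in monocyte/macrophage cells. In neutrophils it stood at 847 CPM in WT and 784 CPM in KO after sham, 1235 and 1119 CPM at 24 h after ligation, and 805 and 760.1 CPM at 72 h, with intervals within 7.82% of each value. These levels span less than a factor of 2 and are highest in both libraries at 24 h after ligation. In monocyte/macrophage cells Ccl3 stood at 69.9 CPM in WT and 130.2 CPM in KO after sham, 328 and 182 CPM at 24 h after ligation, and 50.6 and 71.9 CPM at 72 h, with intervals within 7.42%. Every monocyte/macrophage value is below every neutrophil value, and the WT library at 24 h after ligation is the highest of the 6. After thinning each cell to 1000 UMIs, 22.0% to 38.0% of neutrophils and 3.48% to 16.9% of monocyte/macrophage cells had a Ccl3 UMI over the 6 libraries. Endothelial cells, which stand here for the level of free RNA, had shares of 0% to 1.38%, and fibroblasts 0% to 1.07% in 5 libraries and 3.84% in KO at 72 h.

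Ccl4, the neighbour of Ccl3, was also highest in neutrophils in 5 of 6 libraries, but with a wider range. Neutrophils held 1925 CPM in WT and 1744 CPM in KO after sham, 3058 and 1948 CPM at 24 h after ligation, and 868 and 585 CPM at 72 h, with intervals within 8.97%. WT at 24 h after ligation is the highest value, and both 72 h libraries are lower than all 4 libraries at 24 h. Monocyte/macrophage cells held 148 CPM in WT and 157 CPM in KO after sham, 601 and 248 CPM at 24 h after ligation, and 178 and 197 CPM at 72 h, with intervals within 5.51%. Here WT at 24 h after ligation stands alone, at more than 2 times any other library. In T/NK cells Ccl4 reached 970.0 CPM (879 to 1068) in WT and 479 CPM (408 to 558) in KO at 72 h, over 91 and 172 cells. The WT value there is above that of neutrophils in the same library. Ccl3 in T/NK cells was 462 CPM (399 to 531) and 78.8 CPM (52.0 to 115). The share of neutrophils with a Ccl4 UMI at 1000 UMIs was 27.4% in WT and 31.7% in KO after sham, 40.6% and 31.7% at 24 h, and 16.2% and 16.2% at 72 h. Endothelial cells had 0.144% to 2.27%.

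**Figure D1:**
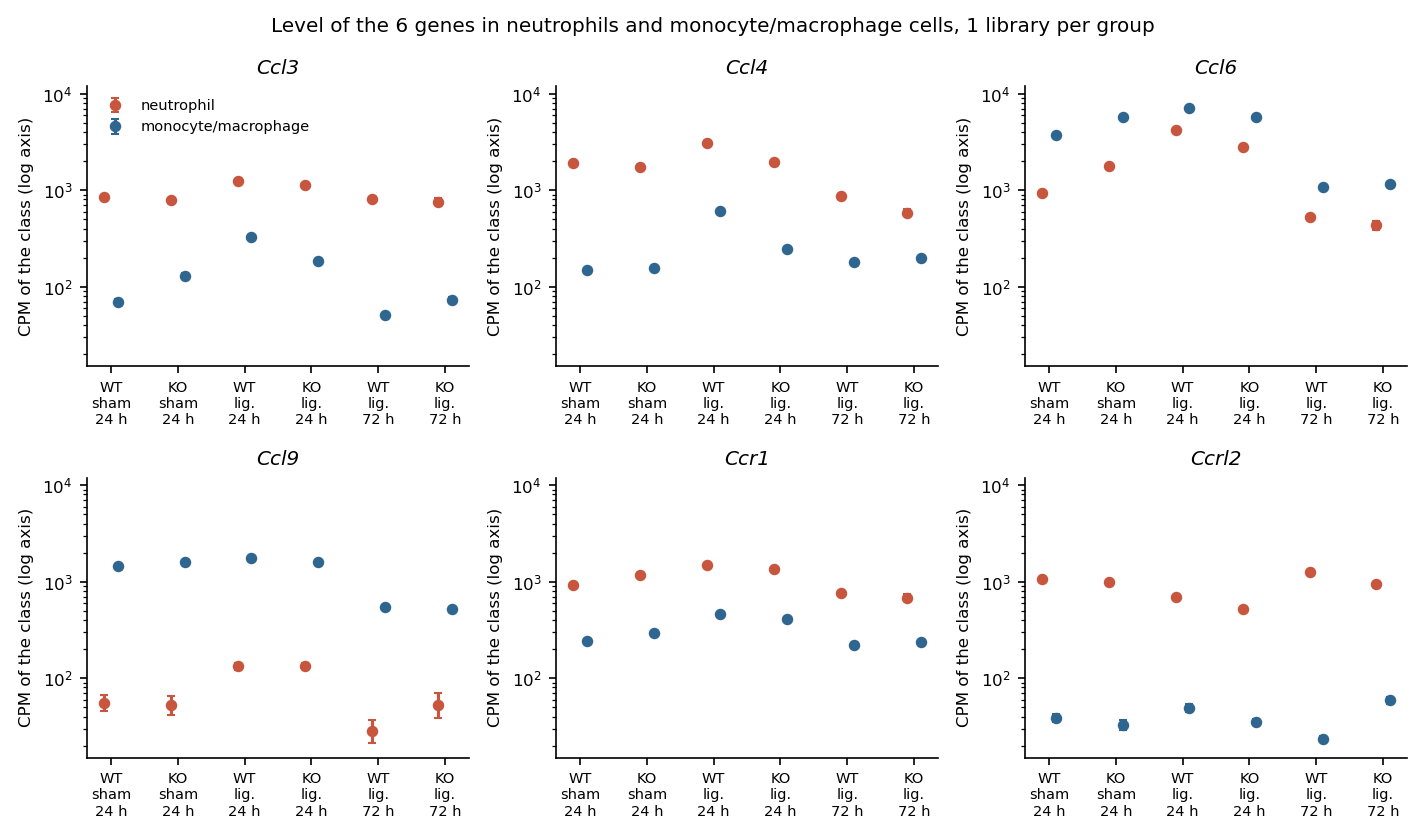
CPM of each gene in neutrophils (red) and monocyte/macrophage cells (blue) of the 6 libraries, on a log axis; bars are exact 95% counting intervals, most of them smaller than the point. Ccl3, Ccl4, Ccr1 and Ccrl2 are higher in neutrophils and Ccl6 and Ccl9 higher in monocyte/macrophage cells in every library.

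Ccl3 and Ccl4 UMIs were also counted cell by cell. Among neutrophils with a Ccl3 UMI (thinned to 1000 UMIs), 35.8% to 63.7% also had a Ccl4 UMI over the 6 libraries, against 8.05% to 26.3% of neutrophils without a Ccl3 UMI. The lowest of the first range, 35.8% in KO at 72 h, is above the highest of the second. In monocyte/macrophage cells the share was 22.4% to 46.5% with Ccl3 and 5.72% to 10.1% without. The cells of a library share its depth and free RNA, so these shares are a description without a test. Both genes were also unevenly spread: the 10% of neutrophils with most UMIs of the gene held 61.7% to 83.1% of the Ccl3 UMIs and 63.2% to 92.8% of the Ccl4 UMIs after thinning. For Ccr1, which most neutrophils carried, those 10% held 30.1% to 37.0%.

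Thinning left out shallower cells and kept 861, 657, 1139, 3346, 924 and 402 neutrophils and 1028, 803, 673, 1472, 2099 and 1735 monocyte/macrophage cells in the order used above. Without thinning, the share of neutrophils with a UMI was 30.4% to 52.0% for Ccl3, 19.7% to 51.3% for Ccl4, 32.8% to 86.9% for Ccl6, 4.64% to 16.8% for Ccl9, 61.6% to 94.6% for Ccr1 and 34.4% to 56.6% for Ccrl2. In monocyte/macrophage cells, which were deeper in 5 of the 6 libraries, it was 12.4% to 43.9%, 17.0% to 34.0%, 65.8% to 97.3%, 49.2% to 92.1%, 34.2% to 89.9% and 14.2% to 25.4% in the same order of genes.

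Neutrophil RNA was also present at a low level among the monocyte/macrophage cells. All 8 neutrophil markers were counted there in every library, with a summed level of 492 CPM in WT and 555 CPM in KO after sham, 2298 and 3223 CPM at 24 h after ligation, and 168 and 1988 CPM at 72 h. Cxcr2, Retnlg and Lcn2 together stood in these cells at 0.388% to 3.46% of their neutrophil level. Ccl3 stood at 6.28% to 26.5% and Ccl4 at 7.67% to 33.6% of theirs. At 24 h after ligation the summed neutrophil markers were higher in KO than in WT, and Ccl3 and Ccl4 lower. Relative to their neutrophil level, Cxcr2, Retnlg and Lcn2 stood there at 3.23% in WT and 3.20% in KO. After sham and at 72 h the markers, Ccl3 and Ccl4 were all higher in KO. The part of neutrophil RNA in these levels was not tested.

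Ccl6 and Ccl9 had the opposite order of classes. Ccl6 in monocyte/macrophage cells stood at 3737 CPM in WT and 5681 CPM in KO after sham, 7078 and 5759.8 CPM at 24 h after ligation, and 1086 and 1166 CPM at 72 h, with intervals within 1.79%. Both 72 h libraries are below all 4 at 24 h, and WT at 24 h after ligation is the highest. Neutrophils held 929 CPM in WT and 1771 CPM in KO after sham, 4151 and 2784 CPM at 24 h after ligation, and 525 and 432 CPM at 72 h, with intervals within 10.5%. The 6 libraries take the same order in both classes, except that the 72 h libraries trade places, and the 24 h ligation libraries are on top. Shares of cells with a Ccl6 UMI at 1000 UMIs were 48.1% to 80.2% in monocyte/macrophage cells of all 6 libraries, and 23.7% to 74.2% in neutrophils of all but KO at 72 h. Endothelial cells had 1.77% to 4.92% in those 5 libraries and fibroblasts 1.35% to 5.35%. In KO at 72 h the share was 23.6% in neutrophils, 17.9% in endothelial cells and 34.1% in fibroblasts. The neutrophil share is below that of fibroblasts there, so by this share Ccl6 is not told apart from free RNA. Its level differed between the neutrophil clusters of this library. It was 191 CPM (151 to 240) in cluster 14 and 1341 CPM (1158 to 1544) in cluster 1. The part of free RNA in these levels was not tested.

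Ccl9 had by far its highest levels in 1 class. Monocyte/macrophage cells held 1462 CPM in WT and 1580 CPM in KO after sham, 1770.3 and 1582 CPM at 24 h after ligation, and 541 and 521 CPM at 72 h, with intervals within 2.70%. The 4 libraries at 24 h lie close together, and both 72 h libraries are far below them. Neutrophils held 55.3 CPM (45.8 to 66.2) in WT and 52.0 CPM (41.3 to 64.8) in KO after sham, 133 CPM (123 to 145) and 135 CPM (128 to 142) at 24 h after ligation, and 28.3 CPM (21.5 to 36.6) and 52.8 CPM (38.8 to 70.2) at 72 h. Dendritic cells, which stood above neutrophils in every library, held 274 to 446 CPM. A Ccl9 UMI was found, at 1000 UMIs, in 33.9% to 59.2% of monocyte/macrophage cells and 2.27% to 8.55% of neutrophils in all libraries but KO at 72 h, against 0.419% to 1.89% of endothelial cells there. In KO at 72 h the shares were 3.98% in neutrophils and 10.3% in endothelial cells, so Ccl9 in these neutrophils is read as background. Of the 12 markers of monocyte/macrophage cells, all were counted in neutrophils in 5 libraries and 11 in WT at 72 h, with a summed level of 2618, 2460, 4362, 3635, 1226 and 1340.5 CPM in the order used above, mostly from Cd14, which stood higher in neutrophils (2830.1 CPM over all libraries) than in monocyte/macrophage cells (662 CPM). The complement genes C1qa, C1qb and C1qc stood in neutrophils at 0.329% to 1.0% of their monocyte/macrophage level in 5 libraries, and at 4.15% in KO at 72 h. Ccl6 stood at 24.9% to 58.6% and Ccl9 at 3.29% to 10.1% of its monocyte/macrophage level. Both are above the C1q share in every library, but not above that of every marker. Of the 12 markers, taken in the same way, 7 had a smaller share than Ccl9 in each of the 4 libraries at 24 h and 6 in each at 72 h. Csf1r, Cd68 and Adgre1 had a larger share than Ccl9 in every library, and Fcgr1 at 72 h, with 6.33% in WT and 11.4% in KO against 5.24% and 10.1% for Ccl9. For Ccl6 8 to 11 of the 12 had a smaller share. The part of monocyte/macrophage RNA in these levels was not tested.

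Summed over each library, neutrophils held 67.9% of the Ccl3 UMIs in WT and 49.8% in KO after sham, 61.3% and 73.7% at 24 h after ligation, and 47.7% and 37.4% at 72 h. For Ccl4 the neutrophil share was 69.2%, 63.5%, 66.1% and 77.8% in the 4 libraries at 24 h, and 22.9% and 15.1% at 72 h. In KO at 72 h monocyte/macrophage cells held more of the Ccl3 UMIs than neutrophils, with 41.5%. At 72 h they were the larger source of Ccl4 in both genotypes, with 66.3% and 59.4%, although the level per UMI was still higher in neutrophils. They held 74.0% to 95% of the Ccl9 UMIs and 73.0% to 91.2% of the Ccl6 UMIs. The neutrophil share of Ccl6 was 21.3% and 19.2% at 24 h after ligation and 2.31% to 5.09% in the other 4 libraries. These shares follow the numbers of cells as well as the level in each, and neutrophils held 4.39% to 25.7% of all UMIs.

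**Figure D2:**
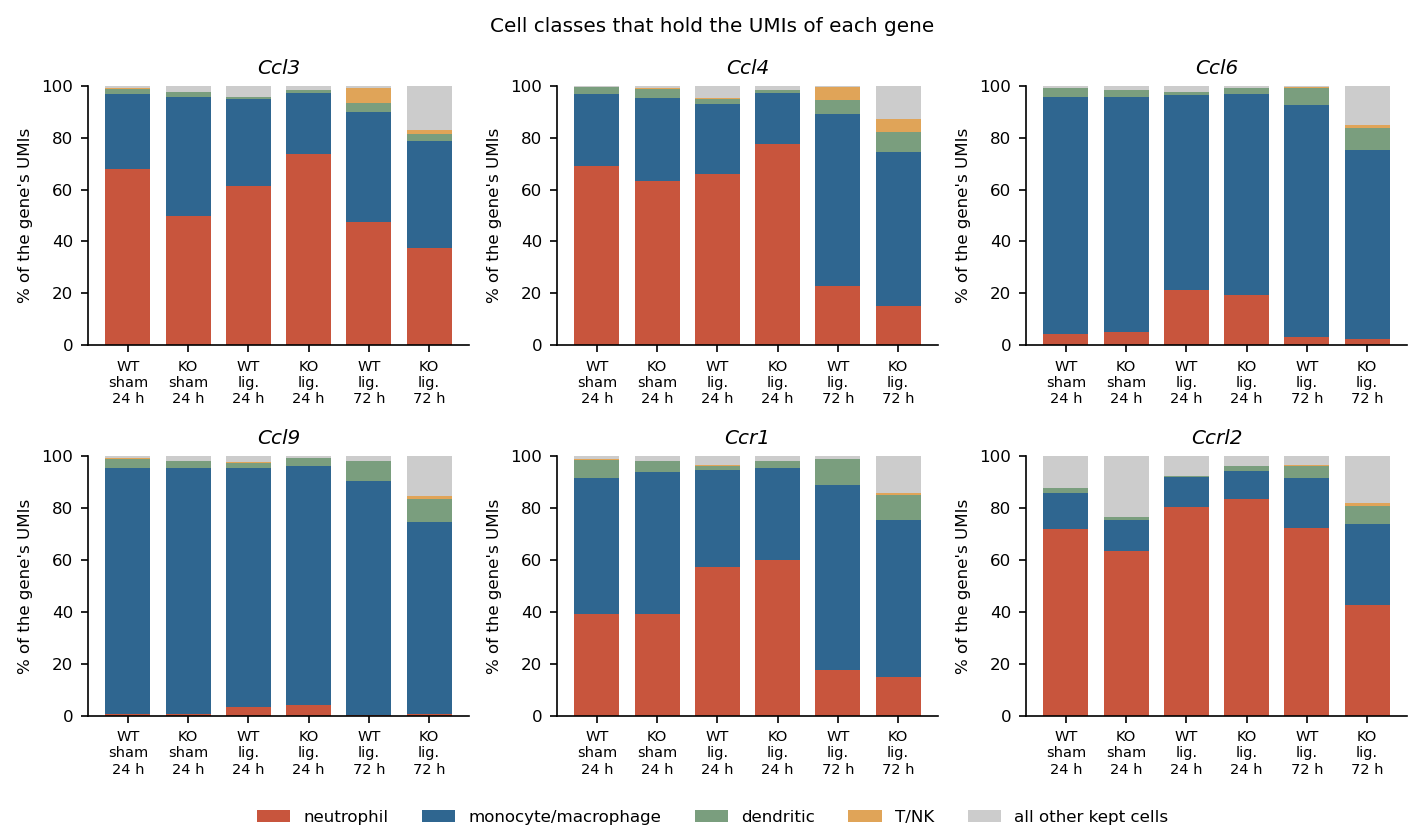
Share of each gene's UMIs, in percent of the kept cells of a library, that lie in neutrophils, monocyte/macrophage cells, dendritic cells, T/NK cells and all other kept cells. Neutrophils hold 83.4% of Ccrl2 at 24 h after ligation in KO, while monocyte/macrophage cells hold most of Ccl6 and Ccl9 in every library; the grey part is largest in KO at 72 h for 5 genes and in KO after sham for Ccrl2.

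Among the receptors, Ccr1 was found in both myeloid classes and was higher in neutrophils. Neutrophils held 932 CPM in WT and 1163 CPM in KO after sham, 1472 and 1362 CPM at 24 h after ligation, and 768 and 684 CPM at 72 h, with intervals within 8.27%, and 49.3% to 72.9% of them had a UMI at 1000 UMIs. Monocyte/macrophage cells held 240.0 CPM in WT and 291 CPM in KO after sham, 462 and 414 CPM at 24 h after ligation, and 221 and 237 CPM at 72 h, with intervals within 4.02% and shares of 18.3% to 34.5%. In both classes the highest values are those at 24 h after ligation, and the neutrophil and monocyte/macrophage values do not overlap. Dendritic cells held 160.4 to 229 CPM, below monocyte/macrophage cells in each library. The share of endothelial cells with a Ccr1 UMI was 0% to 4.83%. Of neutrophils with a Ccl3 UMI at 1000 UMIs, the share with Ccr1 was 51.9% in WT and 58.0% in KO after sham, 72.1% and 72.3% at 24 h after ligation, and 48.5% and 48.6% at 72 h. Among all neutrophils it was 56.6%, 65.3%, 72.9%, 70.1%, 50.2% and 49.3% in the same order. The cells with Ccl3 are part of this group, and numbered 189, 169, 433, 1113, 241 and 109. Their share was lower after sham and lay close to that of all neutrophils after ligation, without a test.

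Ccrl2 was higher in neutrophils than in monocyte/macrophage cells, and did not follow Ccr1. Neutrophils held 1063 CPM in WT and 980.5 CPM in KO after sham, 699 and 515 CPM at 24 h after ligation, and 1247 and 934 CPM at 72 h, with intervals within 7.03%. The lowest values are the 2 libraries at 24 h after ligation, where Ccr1 was highest. The share of neutrophils with a Ccrl2 UMI at 1000 UMIs was 22.9% to 44.6%, in the same order of low and high conditions. Monocyte/macrophage cells held 39.0 CPM in WT and 32.9 CPM in KO after sham, 48.9 and 35.1 CPM at 24 h after ligation, and 23.4 and 58.7 CPM at 72 h, with intervals within 12.4%. Their share with a UMI, 2.38% to 6.69%, overlapped that of endothelial cells, 1.34% to 5.68%, and of fibroblasts, 0% to 5.55%, so Ccrl2 in this class is not told apart from free RNA at this depth. In KO at 72 h, 58.7 CPM (54.1 to 63.5) in monocyte/macrophage cells compares with 52.5 CPM (44.6 to 61.5) in fibroblasts and 44.0 CPM (26.8 to 67.9) in endothelial cells. Smooth muscle cells and pericytes held 38.0 to 83.5 and 17.3 to 66.0 CPM.

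Within neutrophils the genes split by cluster. Levels are first given over all libraries, and then ranked within each library among clusters with at least 50 of its cells, since the clusters differ in the libraries they come from. Cluster 3, led by Tnf, Tnfaip3 and Acod1, genes of the response to inflammatory signals, held 1740.5 CPM of Ccl3, 2918 CPM of Ccl4 and 1696 CPM of Ccrl2, and Ccrl2 is itself among its leading genes. It ranked highest for Ccrl2 in 6 of 6 libraries, for Ccl3 in 5 and for Ccl4 in 4. The exceptions were at 72 h, where cluster 15 held more Ccl4 (1326 against 1134 CPM in WT and 1066 against 544 CPM in KO) and cluster 14 more Ccl3 in KO (899 against 837 CPM). Cluster 5, led by Lipg, Ceacam10, Cish and Cd177, reached 50 cells only in the libraries at 24 h after ligation, with 4265 CPM of Ccl6, 176 CPM of Ccl9 and 1450.4 CPM of Ccr1. It ranked highest for Ccl6 and Ccl9 in both, while cluster 15 held more Ccr1 there (1659 against 1531 CPM in WT and 1539 against 1398 CPM in KO). Cluster 1, led by Retnlg and Lcn2, the second of which encodes a granule protein, held 431 CPM of Ccl3, 293 CPM of Ccrl2 and 2318 CPM of Ccl6, and ranked lowest for Ccl3, Ccl4 and Ccrl2 in all 6 libraries. Cluster 14, led by Siglecf and Itgax, held 226 CPM of Ccl6, 627 CPM of Ccr1 and 880.4 CPM of Ccrl2. It ranked lowest for Ccl6 and Ccr1 in each of the 3 libraries with enough of its cells, and for Ccl9 in 2 of them. Cluster 15 was led by the interferon-induced genes Ifit3b and Ifit1. At 1000 UMIs a Ccrl2 UMI was found in 51.3% of cluster 3, 41.1% of cluster 14 and 16.9% of cluster 1. The ranks rest on cells grouped by other genes that can move with the members, and are given as a description.

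The monocyte/macrophage clusters differed widely in Ccl6 and Ccl9. Cluster 2, led by Ccl24 and Arg1, held 8096 CPM of Ccl6 and 2322 CPM of Ccl9, and ranked highest for both in 6 of 6 libraries, with the ranks taken as above. Its Ccl3 and Ccl4, at 238 and 359 CPM over all libraries, ranked highest in 4 and 2 of the 6. In KO at 24 h after ligation cluster 16 held more of both (274 against 235 CPM of Ccl3 and 371 against 296 CPM of Ccl4), and at 72 h cluster 13 held more Ccl4 (297 against 221 CPM in WT and 535 against 284 CPM in KO). Ccl9 itself was among its leading genes. Cluster 33, led by Alox15 and Serpinb2, followed with 4243 and 1636 CPM, over 86 cells. Cluster 4, led by Plac8 and Ccr2 as in classical monocytes, held 1795 and 664 CPM, and 418 CPM of Ccr1, ranked highest in 5 of 6 libraries. Cluster 8, led by Gpnmb, held 1280.1 and 532 CPM, cluster 16, led by Timd4 and Cd163 as in resident macrophages, 2719 and 734 CPM, and cluster 13, led by Ccl8 and Cxcl10, 855 and 516 CPM. Cluster 31, led by Ear2 and Cd300e as in non-classical monocytes, held the lowest values over all libraries of Ccl3 (44.7 CPM), Ccl4 (26.1 CPM), Ccl6 (432 CPM), Ccl9 (83.8 CPM) and Ccr1 (13 CPM). The highest Ccrl2 over all libraries, 131 CPM, was in cluster 10, of which 1164 of 1270 cells came from KO at 72 h, with a median of 793 UMIs per cell.

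**Figure D3:**
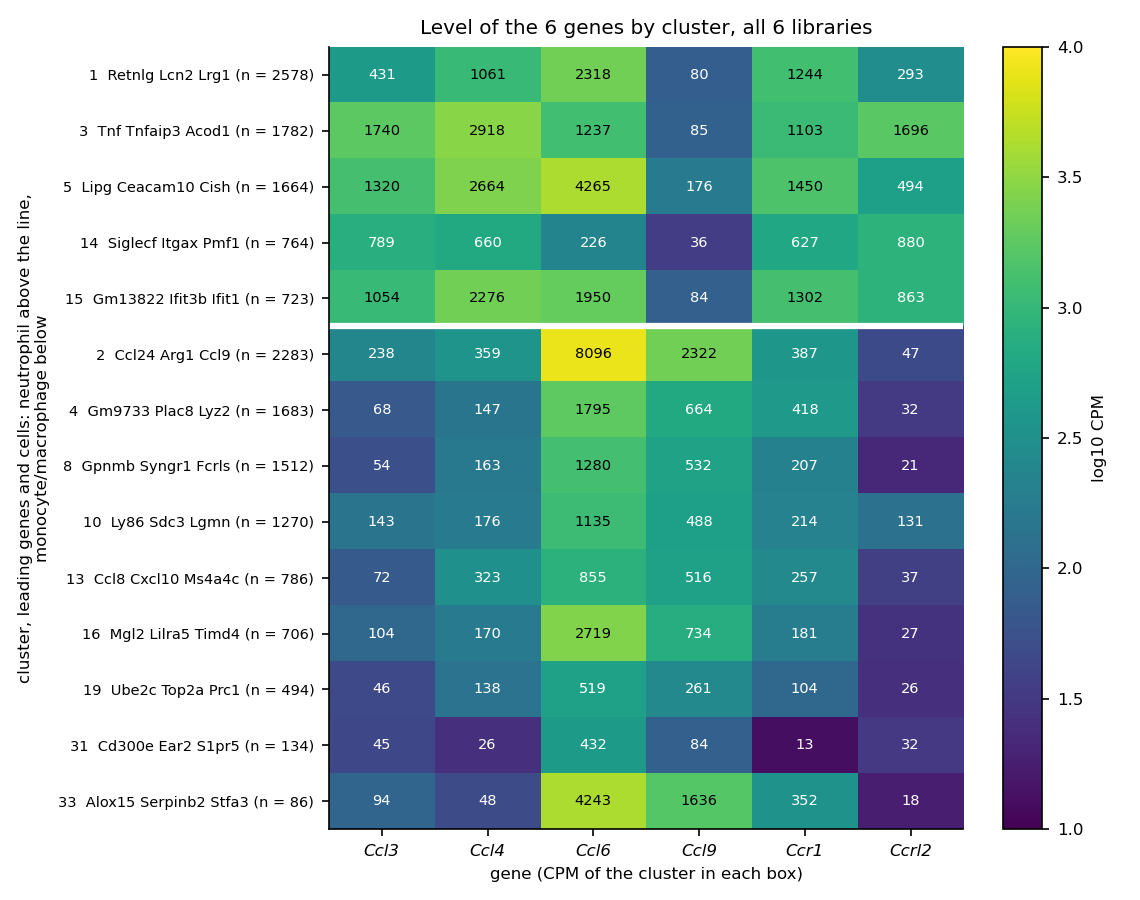
CPM of each gene (number and colour, log10 scale) in the 5 neutrophil and 9 monocyte/macrophage clusters over all 6 libraries, with the cells of each cluster. Cluster 2 stands out for Ccl6 (8096 CPM) and Ccl9 (2322 CPM), and clusters 3 and 5 for Ccl3 and Ccl4 among neutrophils, in levels pooled over libraries.

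At 24 h, ligation against sham was compared within each genotype. A gene was counted as apart where the ratio of its CPM was at least 2-fold in either direction and the pair of libraries held at least 50 UMIs of it, and all 6 genes passed that minimum in every comparison below. In WT neutrophils 2 of 6 members were apart, against 13.2% of the 5990 genes tested. Ccl6 was 4.47 (4.27 to 4.68) times and Ccl9 2.41 (1.98 to 2.97) times the sham level, both higher after ligation. Ccl3, Ccl4 and Ccr1 had ratios of 1.46 (1.38 to 1.54), 1.59 (1.53 to 1.65) and 1.58 (1.5 to 1.66), and Ccrl2 0.657 (0.622 to 0.694). In KO neutrophils 1 of 6 was apart, against 6.51% of the 7017 genes tested. It was Ccl9, at 2.59 (2.07 to 3.29), while Ccl6 had a ratio of 1.57 (1.51 to 1.64) and Ccrl2 of 0.525 (0.496 to 0.557). The median gene had a log2 ratio of -0.22 in WT and -0.19 in KO, so relative to it the ligand ratios are slightly larger.

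The neutrophils of the 2 conditions were held by different clusters, and the ratios were also taken within clusters. Clusters 3 and 1 held 51.1% and 35.7% of WT neutrophils after sham, whereas cluster 5 held 52.7% and cluster 1 22.0% at 24 h after ligation. In KO, clusters 3 and 1 held 46.3% and 42% after sham, and clusters 1 and 5 44.9% and 30.6% after ligation. Ccl6 in WT was 2.58 (2.40 to 2.78) times the sham level within cluster 1 and 2.65 (2.41 to 2.90) times within cluster 3, below the ratio over the whole class. In KO it was 1.12 (1.06 to 1.18) and 1.06 (0.985 to 1.15). Ccl9 within cluster 1 was 1.53 (0.966 to 2.46) in WT and 3.36 (2.19 to 5.42) in KO, and within cluster 3 1.01 (0.670 to 1.5) and 1.94 (1.38 to 2.78). Ccrl2, lower over the whole class, was 1.37 (1.14 to 1.63) within cluster 1 and 0.947 (0.873 to 1.03) within cluster 3 in WT. Cluster 5 has few cells after sham (4 in WT and 9 in KO) and gives no such ratio.

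In WT monocyte/macrophage cells 2 of 6 members were apart at 24 h after ligation, against 6.39% of the 9746 genes tested. Ccl3 was 4.69 (4.33 to 5.08) times and Ccl4 4.07 (3.85 to 4.31) times the sham level. Ccl6 and Ccr1 stood just below the 2-fold mark, at 1.89 (1.87 to 1.92) and 1.93 (1.83 to 2.02). In KO none of the 6 was apart, against 9.35% of the 10142 genes tested. Ccl3 had a ratio of 1.40 (1.31 to 1.5) there, Ccl4 of 1.58 (1.49 to 1.68), and Ccl6 and Ccl9 of 1.01 (1.0 to 1.02) and 1.0 (0.981 to 1.02). The log2 ratio of the median gene was -0.12 in WT and -0.28 in KO. Summed neutrophil markers in these cells were also higher after ligation, at 2298 against 492 CPM in WT and 3223 against 555 CPM in KO. The part of neutrophil RNA in the Ccl3 and Ccl4 ratios was not tested. Cluster 2 held the most cells of any cluster in all 4 libraries, 41.6% and 41.2% after sham and 56.0% and 50.7% after ligation in WT and KO. Within it Ccl3 was 4.19 (3.80 to 4.63) times and Ccl4 4.32 (4.01 to 4.66) times the sham level in WT, and 1.15 (1.06 to 1.25) and 1.22 (1.13 to 1.31) times in KO. Within cluster 4, Ccl3 was 2.22 (1.77 to 2.80) times and Ccl4 2.58 (2.25 to 2.97) times the sham level in WT, and 0.685 (0.568 to 0.829) and 1.19 (1.01 to 1.40) times in KO. In cluster 16, the cells with markers of resident macrophages, Ccl3 was 6.06 (4.51 to 8.21) and 6.28 (4.95 to 8.05) times and Ccl4 7.58 (6.07 to 9.52) and 5.75 (4.72 to 7.05) times the sham level in WT and KO, so in this cluster both genotypes had much higher levels after ligation.

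The 72 h libraries were then compared with those at 24 h after ligation, within each genotype. In WT monocyte/macrophage cells all 6 members were apart, against 19.1% of the 10851 genes tested, and each was lower at 72 h. Ccl3 had a ratio of 0.154 (0.145 to 0.164), Ccl4 0.297 (0.286 to 0.309), Ccl6 0.153 (0.151 to 0.156) and Ccl9 0.305 (0.299 to 0.312). The receptors had smaller changes, 0.478 (0.459 to 0.497) for Ccr1 and 0.477 (0.422 to 0.540) for Ccrl2. The receptors are near the mark: with the mean over cells in place of summed UMIs 4 of 6 were apart, with log2 ratios of -0.84 for Ccr1 and -0.89 for Ccrl2, and without the 10 highest cells 5 of 6, with -0.93 for Ccrl2, which is near its background here. Of all genes tested there, 7.24% were lower by this fold. In KO 3 of 6 were apart, against 12.3% of the 10386 genes tested, and all 3 were lower, Ccl3 at 0.395 (0.364 to 0.427), Ccl6 at 0.202 (0.199 to 0.206) and Ccl9 at 0.329 (0.320 to 0.339). Ccl4 had a ratio of 0.793 (0.752 to 0.835), Ccr1 of 0.573 (0.548 to 0.60) and Ccrl2 of 1.67 (1.5 to 1.87). With cells of at least 1500 UMIs only, these KO ratios were 0.330 (0.301 to 0.361) for Ccl3, 0.206 (0.202 to 0.210) for Ccl6, 0.336 (0.326 to 0.347) for Ccl9, 0.753 (0.712 to 0.796) for Ccl4, 0.585 (0.557 to 0.613) for Ccr1 and 1.20 (1.05 to 1.36) for Ccrl2.

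Different clusters held most monocyte/macrophage cells at the 2 times. In WT, 56.0% of the class was in cluster 2 at the earlier and 9.72% at the later time, and in KO 50.7% and 6.30%. At 72 h clusters 8 and 13 held 32.5% and 25.5% in WT, and clusters 10 and 8 held 41.4% and 21.5% in KO. Ccl6 and Ccl9, the genes highest in cluster 2, were lower by less within clusters 2, 4 and 8 than over the whole class. Within cluster 2, Ccl6 was 0.518 (0.505 to 0.531) times the 24 h level in WT and 0.499 (0.479 to 0.520) times in KO, and Ccl9 0.779 (0.747 to 0.813) and 0.790 (0.741 to 0.842) times. Within cluster 4 the Ccl6 ratio was 0.646 (0.619 to 0.673) in WT and 0.722 (0.693 to 0.752) in KO, and that of Ccl9 1.25 (1.16 to 1.34) and 0.987 (0.926 to 1.05), so Ccl9 was not lower in this cluster in WT. Cluster 8, with enough cells at 24 h in KO only, had 0.310 for Ccl6 and 0.445 for Ccl9. Ccl3 and Ccl4 also had low ratios within clusters in WT, 0.171 (0.139 to 0.208) and 0.288 (0.256 to 0.324) in cluster 2 and 0.328 (0.261 to 0.411) and 0.256 (0.223 to 0.295) in cluster 4. In KO the Ccl3 ratio was 0.405 (0.304 to 0.529) in cluster 2, 0.581 (0.463 to 0.722) in cluster 4 and 0.782 (0.623 to 0.989) in cluster 8, and that of Ccl4 0.961 (0.816 to 1.12), 0.391 (0.326 to 0.466) and 1.76 (1.47 to 2.12), so Ccl4 was higher at 72 h in cluster 8.

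**Figure D4:**
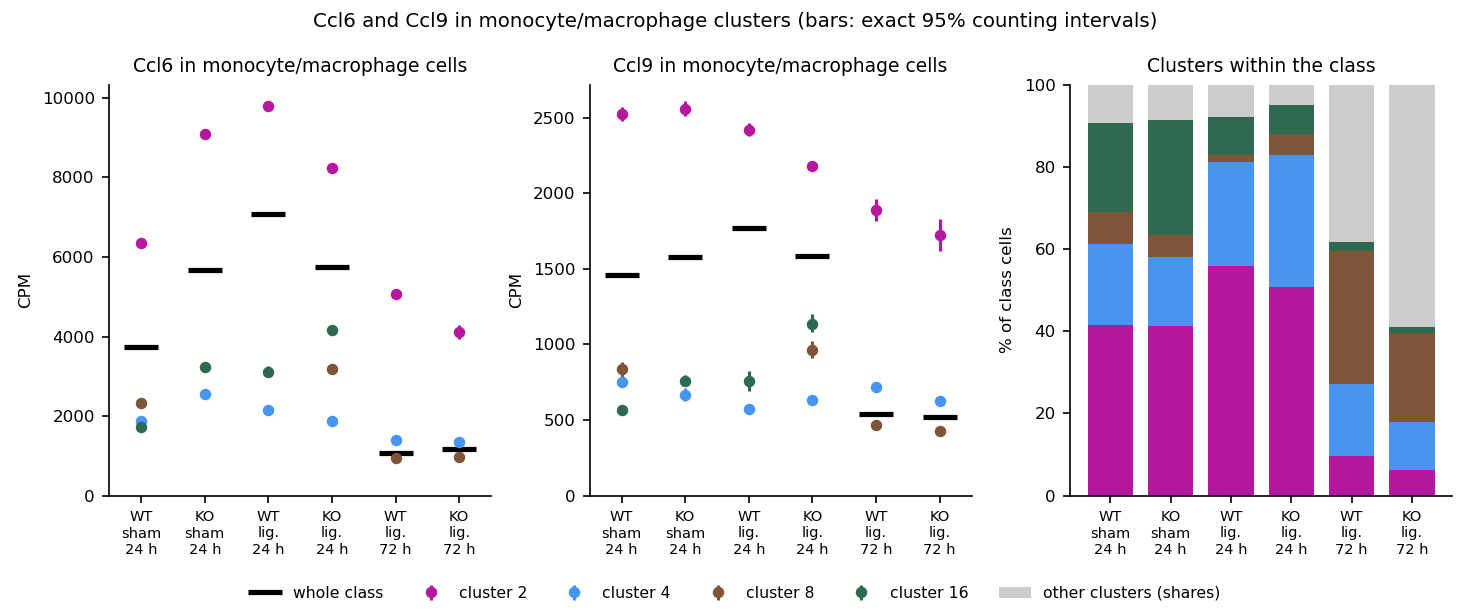
CPM of Ccl6 (left) and Ccl9 (middle) in the whole monocyte/macrophage class (black dash) and in clusters 2, 4, 8 and 16 where a library has at least 50 of their cells, with exact 95% counting intervals; the right panel gives the percent of class cells in each cluster. Ccl9 in cluster 2 stays between 1722 and 2559 CPM, while the share of that cluster is 56.0% at 24 h after ligation and 9.72% at 72 h in WT.

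In neutrophils 3 of 6 members were apart between the times in WT, against 39.2% of the 6439 genes tested, and 3 of 6 in KO, against 35.3% of the 7066 genes tested. They were Ccl4, Ccl6 and Ccl9 in both, all lower at 72 h. Ccl4 had a ratio of 0.284 (0.270 to 0.298) in WT and 0.300 (0.275 to 0.328) in KO, Ccl6 of 0.126 (0.119 to 0.134) and 0.155 (0.140 to 0.172), and Ccl9 of 0.212 (0.159 to 0.278) and 0.391 (0.286 to 0.524). In KO neutrophils at 72 h the share of cells with Ccl6 is not told apart from free RNA, and Ccl9 is read as background, as given above. Ccl3 and Ccr1 were lower by less, at 0.652 (0.616 to 0.689) and 0.522 (0.493 to 0.552) in WT. Ccrl2 alone was higher at 72 h, at 1.79 (1.69 to 1.88) in WT and 1.81 (1.68 to 1.95) in KO. The median gene of neutrophils had a log2 ratio of 0.54 in WT and 0.51 in KO. Relative to it, Ccl3 and Ccr1 were also at least 2-fold lower in both genotypes, which makes 5 of 6, and the log2 ratio of Ccrl2 was 0.30 in WT and 0.35 in KO. With cells of at least 1500 UMIs the KO ratios were 0.319 (0.291 to 0.349) for Ccl4, 0.149 (0.133 to 0.166) for Ccl6, 0.339 (0.237 to 0.472) for Ccl9 and 1.94 (1.80 to 2.10) for Ccrl2.

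The largest neutrophil cluster at 72 h was cluster 14 (42.2% in WT and 48.4% in KO), which held 0.521% and 0.765% at 24 h. Ccl6 was also lower within clusters present at both times. In WT its ratio was 0.446 (0.402 to 0.494) in cluster 1, 0.252 (0.213 to 0.296) in cluster 3 and 0.129 (0.114 to 0.145) in cluster 15, and in KO 0.540 (0.466 to 0.623), 0.277 (0.221 to 0.343) and 0.0918 (0.0613 to 0.132). Ccl4 had ratios of 0.138, 0.265 and 0.330 in WT and 0.344, 0.174 and 0.409 in KO in the same clusters. Ccrl2 was higher at 72 h in each of them, with ratios of 1.67, 1.62 and 1.32 in WT and 1.51, 1.17 and 1.91 in KO. The summed markers of monocyte/macrophage cells in neutrophils were also lower at 72 h, as given above, and their part in the Ccl6 and Ccl9 ratios was not tested.

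KO was compared with WT in each condition. In neutrophils no member was apart in any of them, against 1.06% of the 5092 genes tested after sham, 3.22% of the 7334 genes tested at 24 h after ligation and 1.6% of the 5516 genes tested at 72 h. The members nearest to the mark were Ccl9 at 72 h, at 1.86 (1.24 to 2.79) with the KO library at its background, and Ccl6 after sham. Ccl6 was 1.91 (1.80 to 2.02) times the WT level after sham. Its ratio was below 1 after ligation, at 0.671 (0.658 to 0.684) at 24 h and 0.824 (0.731 to 0.926) at 72 h. In KO at 72 h the share of neutrophils with Ccl6 is not told apart from free RNA. Ccl4 was at 0.906 (0.863 to 0.951), 0.637 (0.623 to 0.651) and 0.674 (0.610 to 0.743) after sham and at 24 h and 72 h after ligation. Ccrl2 was at 0.922 (0.863 to 0.985), 0.737 (0.704 to 0.772) and 0.749 (0.692 to 0.810). Ccl3 and Ccr1 stayed nearer to WT, with ratios of 0.906 to 0.944 and 0.890 to 1.25. Within clusters, Ccl6 after sham was 1.81 (1.67 to 1.96) in cluster 1 and 1.88 (1.71 to 2.07) in cluster 3, and at 24 h after ligation 0.783, 0.757, 0.767 and 0.493 in clusters 1, 3, 5 and 15. Ccl4 at 24 h after ligation was 0.637, 0.731, 0.754 and 0.649 in the same 4, below 1 in each. With cells of at least 1500 UMIs the 72 h ratios were 0.691 (0.624 to 0.765) for Ccl4, 0.779 (0.686 to 0.883) for Ccl6, 1.56 (0.995 to 2.41) for Ccl9 and 0.756 (0.696 to 0.820) for Ccrl2.

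In monocyte/macrophage cells none of the 6 was apart after sham, against 2.4% of the 9974 genes tested. Ccl3 had the largest ratio, 1.86 (1.70 to 2.04), and Ccl6 1.52 (1.5 to 1.54). At 24 h after ligation 1 member was apart, against 1.86% of the 9882 genes tested. It was Ccl4, at 0.413 (0.396 to 0.429) times the WT level, and Ccl3 was at 0.556 (0.529 to 0.585). All 6 ratios were below 1 there, the other 4 between 0.717 and 0.895. The median gene was also lower in KO, with a log2 ratio of -0.13, so a ratio below 1 is not particular to the members. Within cluster 2 Ccl4 was 0.386 (0.368 to 0.405) and Ccl3 0.536 (0.506 to 0.567), within cluster 4 0.514 (0.463 to 0.570) and 0.732 (0.619 to 0.868), and within cluster 16 0.852 (0.735 to 0.990) and 1.28 (1.05 to 1.57), so Ccl3 was not lower in KO in that cluster. The share of the class with a Ccl4 UMI at 1000 UMIs was 14.3% in WT and 10.6% in KO, and with a Ccl3 UMI 16.9% and 10.7%. Without thinning, the 10 highest cells held 36.2% of the Ccl4 UMIs in WT and 23.0% in KO, and 26.8% and 16.6% of the Ccl3 UMIs. Without the 10 highest cells the log2 ratio of Ccl4 was -1.02 in place of -1.28, near the 2-fold mark. That of Ccl3 was -0.67 in place of -0.85. The summed neutrophil markers counted in the monocyte/macrophage cells were higher in KO, with 2298 CPM in WT and 3223 CPM in KO. Relative to their neutrophil level, Cxcr2, Retnlg and Lcn2 together stood at 3.23% in WT and 3.20% in KO. Ccl4 in neutrophils was itself lower in KO, at 1948 against 3058 CPM. The part of neutrophil RNA in these ratios was not tested.

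At 72 h 1 member was apart in monocyte/macrophage cells, against 4.19% of the 11030 genes tested. It was Ccrl2, at 2.51 (2.25 to 2.81) times the WT level. With cells of at least 1500 UMIs the ratio was 1.83 (1.61 to 2.07), so that none was apart, over 1302 cells in KO and 2095 in WT. Cluster 10, which is nearly all from this KO library, held 41.4% of its class against 2.16% in WT. Within the 5 clusters present in both libraries the Ccrl2 ratio was 1.75 to 2.64. Ccl3 was at 1.42 (1.30 to 1.55), or 1.16 (1.05 to 1.28) with the UMI minimum, and the other 4 genes at 0.963 to 1.10. Neutrophil markers counted in the monocyte/macrophage cells, 168 CPM in WT and 1988 CPM in KO, stood in the same direction as Ccrl2 and Ccl3. The part of neutrophil RNA in these ratios was not tested, and Ccrl2 in this class is not told apart from free RNA, as given above. All of these comparisons use 1 library on each side, and a difference between pools of mice cannot be told apart from a difference between genotypes.

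**Figure D5:**
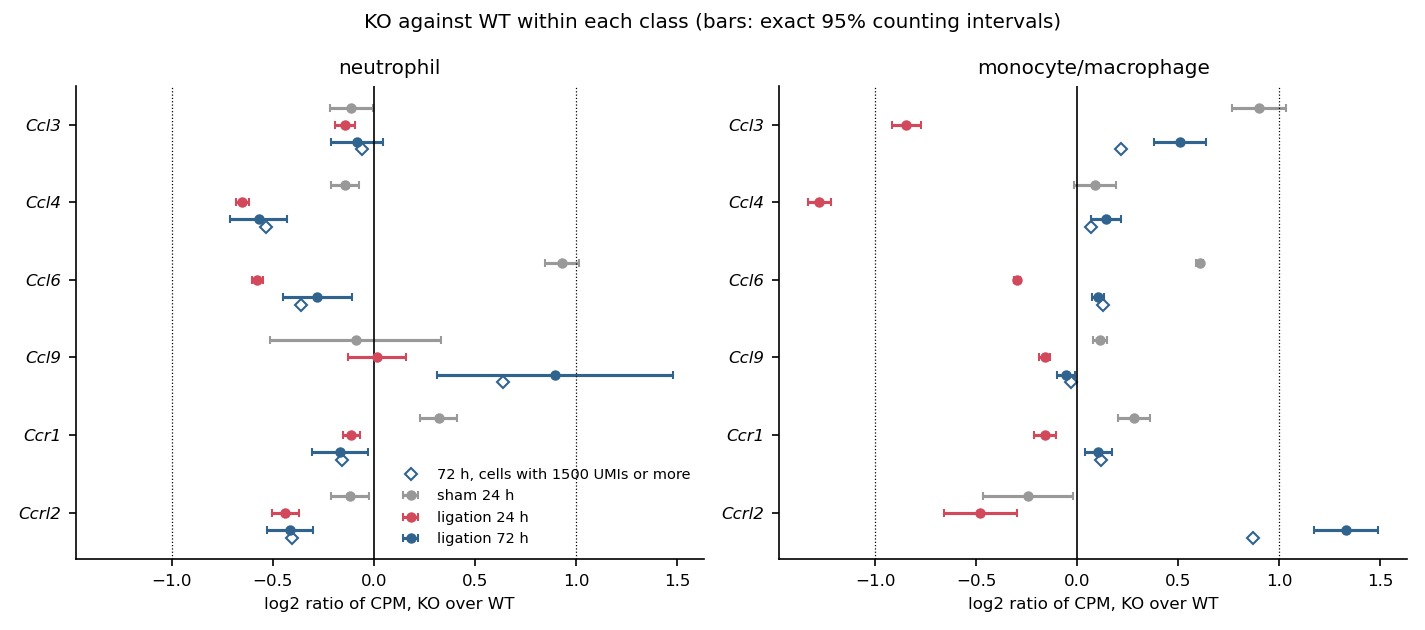
log2 ratio of CPM in KO over WT for the 6 genes in neutrophils (left) and monocyte/macrophage cells (right) after sham and at 24 h and 72 h after ligation, with exact 95% counting intervals; open diamonds are the 72 h ratios in cells with at least 1500 UMIs, and dotted lines mark 2-fold. Ccl4 in monocyte/macrophage cells at 24 h after ligation and Ccrl2 at 72 h are past a dotted line, the latter not with the UMI minimum.

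To describe which genes vary with the members, levels were correlated over the 46 units of cluster and library with at least 50 cells, 21 of neutrophils and 25 of monocyte/macrophage cells, on a log2(CPM + 1) scale among 12941 genes. These units share libraries and depth, so r is a description with no p. Ccl3 was most like Il1rn (Pearson r = 0.95), Bcl2a1a (0.93) and Egr3 (0.93), and Ccl4 most like Ccl3 (0.91), Il1rn (0.91) and Ier3 (0.89). Il1rn encodes the interleukin-1 receptor antagonist. Ccl6 was most like Rbpj (0.80), Tfec (0.78) and Gpi1 (0.78), and Ccl9 like Arg1 (0.95), Ms4a8a (0.93) and F13a1 (0.93). Arg1 encodes arginase 1. Ccr1 was most like Btg1 (0.98), Csf2rb (0.96) and Csrnp1 (0.96), and Ccrl2 like Gadd45b (0.98), Ppp1r15a (0.97) and Nfkbid (0.96). Csf2rb encodes the shared chain of the GM-CSF, IL-3 and IL-5 receptors, and Nfkbid an inhibitor of the NF-kB family.

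Over all units r mostly follows the difference between the 2 classes, so it was also taken within each. Ccl6 and Ccl9 had r = 0.96 in monocyte/macrophage units and 0.63 in neutrophil units. Ccl3 and Ccl4 had 0.75 and 0.74. In neutrophil units Ccl6 went with Ccr1 (r = 0.92) and not with Ccl3 (0.06), and Ccrl2 had r = 0.67 with Ccl3 and -0.30 with Ccr1. Ccrl2 and its nearest gene Gadd45b had r = 0.94 in neutrophil units and 0.76 in monocyte/macrophage units. In the same order, r was 0.83 and 0.85 for Ccl3 with Il1rn, and 0.66 and 0.94 for Ccl6 with Rbpj. It was 0.62 and 0.87 for Ccl9 with Arg1, and 0.93 and 0.91 for Ccr1 with Btg1. The lowest among the genes named as most alike were Ccl9 with Ms4a8a in neutrophil units (0.48) and Ccl9 with F13a1 in monocyte/macrophage units (0.51).

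Of 20 other genes for CC chemokines, their receptors, and chemerin with its receptors, 8 to 11 had at least 50 UMIs over a pair of libraries in monocyte/macrophage cells. In WT at 24 h after ligation against sham, 2 of 9 were at least 2-fold higher and 1 lower, where 2.59% and 3.81% of all genes tested were. The list's median log2 ratio was 0.26 and that of all genes -0.12. The monocyte-attracting chemokine genes Ccl2 and Ccl7 were the higher ones, at 2.54 (2.5 to 2.58) and 2.10 (2.05 to 2.16), and Ccl8 the lower, at 0.349 (0.264 to 0.455). In KO, 1 of 8 was higher and none lower, Ccl8 at 2.32 (1.93 to 2.81). Between 24 h and 72 h, 3 of 10 were higher and 2 lower in WT, and 4 of 11 higher and 3 lower in KO. Of all genes tested 11.9% were higher and 7.24% lower in WT, and 9.36% and 2.93% in KO. The list's median log2 ratio was -0.48 in WT and -0.36 in KO, against 0.04 and 0.14 for all genes. Ccl24, an eosinophil-attracting chemokine gene, was at 0.0368 (0.0347 to 0.0389) in WT and 0.0801 (0.0741 to 0.0864) in KO, and Ccl2 at 0.283 (0.279 to 0.286) and 0.222 (0.218 to 0.227), so both were lower with Ccl6 and Ccl9. Ccl7 was lower in KO, at 0.324 (0.315 to 0.333). Ccl8 went the other way, at 42.9 (34.0 to 55.0) and 3.46 (3.15 to 3.79). Ccl5, which is mainly a T/NK transcript here (5414 CPM in WT at 72 h), was at 13.4 (9.18 to 20.1) in KO, from 1.68 to 22.4 CPM. The other genes past 2-fold stayed under 20 CPM and are named because so few passed, after their values were seen. They were Ccl5 and Rarres2 in WT and Ccr7 and Rarres2 in KO, all higher at 72 h.

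In KO against WT, Ccl8 was the only one of this list past 2-fold in monocyte/macrophage cells at 24 h after ligation, at 4.57 (3.58 to 5.92) times the WT level (37.5 against 8.21 CPM). At 72 h it was at 0.369 (0.348 to 0.390), with Ccr7 and Rarres2 higher in KO at under 20 CPM, and after sham none of 8 was apart. Rarres2, the gene of chemerin, which CCRL2 binds, was a fibroblast transcript, at 628 CPM in KO after sham and 195 CPM in KO at 72 h. Its signalling receptor gene Cmklr1 was found in monocyte/macrophage cells at 42.2 to 79.2 CPM and in fibroblasts at 12.9 to 59.2 CPM.

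Neutrophils held few of the listed genes, with 1 to 7 of the 20 past 50 UMIs over a pair. Ccl2 stood at 24.4 to 89.8 CPM in neutrophils and 1172 to 5274 CPM in monocyte/macrophage cells. Its neutrophil ratio was 2.55 (2.10 to 3.12) for KO over WT at 24 h after ligation, 2.76 (2.02 to 3.89) for KO ligation over sham and 2.23 (1.73 to 2.87) for 72 h over 24 h in WT. Ccl7 was at 3.88 (2.01 to 8.60) in KO after ligation against sham, with 9 UMIs in the sham library, and Ccr2 at 3.83 (2.10 to 6.67) in KO at 72 h against 24 h, with 18 UMIs at 72 h. The rest past 2-fold stayed under 20 CPM. They were Ccr3, higher in KO at 24 h after ligation, Ccl7, higher in WT after ligation and lower again at 72 h, and Ccl24, lower in WT after ligation and at 0 UMIs in KO at 72 h. For these genes the part of RNA from monocyte/macrophage cells was not tested.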

How the data were processed

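The values are the authors' deposited UMI counts per gene and cell in 6 matrices. The authors made them with Cell Ranger 6.0.0 on mm10, per the submitters' processing notes, and any later filter on cells is not given in the sources used here. Cells with at least 200 genes and at most 20% mitochondrial UMIs were kept. Scrublet scores marked doublets, removing 0.8% of cells per 1000 deposited cells in each library. Counts scaled to 10000 per cell were log-transformed, and 2000 variable genes without the 6 members, 30 principal components, 20 neighbours and Leiden resolution 1 gave 34 clusters (scanpy 1.11.5, leidenalg 0.10.2, Python 3.11.15). Clusters were named from marker lists where at least 3 markers were detected and leading genes (of those in at least 20% of the cluster's cells) did not go against the name. UMIs were then summed by class and library and divided by the class total (CPM), with exact Poisson intervals, and ratios have exact conditional intervals (scipy 1.17.1). Ratios within clusters need at least 50 cells on both sides. Counts at least 2-fold apart used genes with at least 50 UMIs over the pair and classes with at least 100 cells. The ratio script was tested on simulated data with known changes. Shares of cells were taken after thinning each cell to 1000 UMIs, leaving out shallower cells. Groups come from the sample labels. Named genes are the 6 members, listed pathway genes at least 2-fold apart with at least 20 CPM, and the 3 genes most like each member (at least 200 UMIs). A gene of the pathway list is not reported here. The members, lists and rules were chosen with earlier results of these data known. Alternatives were other resolutions (0.5 and 2), no doublet removal, 10% mitochondrial UMIs, at least 1500 UMIs, members among the variable genes, no count minimum, equal weight for each cell, ratios relative to the median gene, and leaving out the 10 highest cells.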

Additional observations from a re-analysis of the deposited data

Results flagged for a closer look

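The following log2 ratios were picked out because they point in opposite directions, past the counting error, in conditions or genotypes that share a contrast. With 1 library per group none of these differences was tested. In monocyte/macrophage cells Ccl3 had a log2 ratio of KO over WT of 0.90 in sham-operated hearts, and of -0.85 and 0.51 at 24 h and 72 h of ligation. Ccl4 in the same cells had -1.28 at 24 h after ligation and 0.14 at 72 h. The 72 h values of both genes rest on the shallow KO library. With the UMI minimum per cell used above, the 72 h log2 ratio was 0.22 for Ccl3 and 0.07 for Ccl4. The Ccl4 ratio was then 1.05 (0.990 to 1.11), so its direction at 72 h was not past the counting error. In neutrophils the log2 ratio of Ccl6 was 0.93 in sham-operated hearts, and -0.58 and -0.28 at 24 h and 72 h of ligation. The last of these rests on a KO library where the share of neutrophils with Ccl6 is not told apart from free RNA.

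Ccrl2 in monocyte/macrophage cells had a log2 ratio of 72 h over 24 h of -1.07 in WT and 0.74 in KO. Its log2 ratio of KO over WT was -0.24 in sham-operated hearts, and -0.48 and 1.33 at 24 h and 72 h of ligation. These rest on levels near the background, and the 72 h values on the shallow KO library, where the minimum of 1500 UMIs gave 0.87.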

How the results depend on the processing

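The 84 log2 ratios of the members and the 14 counts of members at least 2-fold apart were recomputed under 10 other settings, and no called ratio changed sign. The count for KO over WT in neutrophils at 72 h was 0, and 1 with at most 10% mitochondrial UMIs, with the mean over cells and without the 10 cells highest in the gene. In each of these the gene was Ccl9. With the mean over cells the neutrophil count of KO over WT after sham was 1, with Ccl6, and the monocyte/macrophage count at 72 h was 2, with Ccl3 beside Ccrl2. The latter was 0 with at least 1500 UMIs per cell. Relative to the median gene, the count for WT ligation over sham in monocyte/macrophage cells was 4, with Ccl6 and Ccr1 added, and those for 72 h over 24 h in neutrophils were 5 in WT and 5 in KO, with Ccl3 and Ccr1 added. With the mean over cells the monocyte/macrophage count was 4 of 6 for WT at 72 h over 24 h, without Ccr1 and Ccrl2, and 3 for WT ligation over sham, with Ccr1 added. Without the 10 highest cells the first of these was 5, without Ccrl2, the neutrophil count for KO at 72 h over 24 h was 4, with Ccr1 added, and that for WT ligation over sham 3, with Ccl4 added. With the mean over cells the neutrophil count for KO at 72 h over 24 h stayed at 3 but held Ccr1 (-1.06) in place of Ccl9 (-0.99), and the monocyte/macrophage count there stayed at 3 with Ccrl2 in place of Ccl3. Of the 84 log2 ratios, 42 moved by more than the counting interval with the mean over cells, 48 relative to the median gene, 41 without the 10 highest cells, 17 without doublet removal, 5 with the UMI minimum and 1 with the mitochondrial limit, and none under the other 4 settings. With the mean over cells the log2 ratio of Ccrl2 in KO monocyte/macrophage cells at 72 h over 24 h was 1.74, and that of Ccl3 -0.72. In all, 9 ratios changed sign under some setting, 18 times over, each with a log2 ratio of at most 0.14 in size as reported and 0.16 under the setting. They were Ccl6 and Ccr1 in monocyte/macrophage cells for KO over WT at 72 h (-0.16 and -0.14 with the mean over cells), Ccl9 there after sham (-0.10), and Ccl3 and Ccl4 in neutrophils for KO over WT after sham (0.07 and 0.02 without the 10 highest cells), and also Ccl6 and Ccl9 in monocyte/macrophage cells for KO ligation over sham and Ccl9 in neutrophils for KO over WT after sham and at 24 h after ligation. The causes were not tested. No paired analysis was possible because each group has 1 library and the labels give no replicate numbers. The libraries limit what can be read: counting intervals are narrow, while the spread between mice is unknown, and no library can be left out without losing its group.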
